A study of Mus musculus with 36 samples.

Results

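The Ifi200 genes and Aim2 are a tight cluster of interferon-inducible genes on mouse chromosome 1, and they were followed here as 10 named members, Ifi202b, Ifi203, Ifi204, Ifi205, Ifi207, Ifi209, Ifi211, Ifi213, Mndal and Aim2, among the 37417 genes of the count table. All 10 were found by symbol and all 10 reached 1 CPM (a gene's reads over all reads in genes of that library, on the usual counts-per-million scale) in at least 4 of the 36 libraries. The libraries are whole-tumour RNA from subcutaneous tumours of 3 models, MC38 (a colon carcinoma line) and PancO2 (a pancreatic ductal carcinoma line), both labelled as grown in C57BL/6J mice, and CT26 (a colon carcinoma line), labelled as grown in BALB/c mice. All mice are labelled wild type and 12 weeks old. Within each model, 4 tumours received control IgG from rat serum, 4 anti-PD-1 and 4 anti-CTLA4, each at 10 mg/kg into the peritoneum, so that the labels give 9 groups of 4. Because a tumour holds cancer cells, stroma and immune cells together, fewer cells of a type and less RNA per cell cannot be told apart.

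The proteins of this family, called PYHIN proteins, pair a pyrin domain, which binds other pyrin domains, with 1 or more HIN domains, which bind DNA. Most of the genes are induced by type I and type II interferon, and several of the proteins take part in sensing DNA in the cytosol or in transcriptional control in the nucleus. AIM2 binds double-stranded DNA and assembles an inflammasome through the adaptor ASC (gene Pycard) and caspase-1. The product of Ifi202b lacks the pyrin domain and restrains AIM2, and the product of Ifi204 acts upstream of STING and is often compared with human IFI16. Mouse strains differ widely in this cluster, and C57BL/6 mice are known for little or no Ifi202b expression.

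The labels of model and strain did not order these libraries. The libraries were therefore put in 3 classes, selected on the measured levels of H2-Ea-ps and Cp, which are not members. The members were chosen by name from the gene family, with earlier results of these data in view, including their levels in these classes. The H2-Ea-ps class holds the 12 libraries with H2-Ea-ps, an MHC class II gene that is silent in C57BL/6 mice, above 10 CPM. The Cp class holds the 12 with Cp, the gene of ceruloplasmin, above 1000 CPM. The remaining 12 libraries form the neither class. The library nearest to the first threshold from above stood at 32.8 CPM of H2-Ea-ps and the nearest from below at 0.0845 CPM. For Cp, the nearest from above was PancO2 IgG 48 at 1389 CPM and the nearest from below PancO2 IgG 49 at 611 CPM, by their labels. Each class mixed all 3 labelled models and all 3 treatments, and 16 of the 36 libraries went against their labelled strain: 8 of the 12 in the H2-Ea-ps class are labelled C57BL/6J, and 8 of the 12 labelled BALB/c had no more than background H2-Ea-ps. Depth was 7883106 to 41751023 reads in genes. The shallowest library, labelled PancO2 anti-PD-1 71, also had 15.7% of its reads in mitochondrial genes. Since the classes come from measured values, differences between them are given as levels and ranges with no test, and tumour line, mouse strain and cell makeup cannot be told apart in them.

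Some members share sequence. The annotated transcripts of GRCm38 were cut into windows of 50 bases, and 72.8% of the windows of Ifi211 also occurred in another gene, 44.7% in Ifi205. The share was 33.7% for Ifi209, whose partner was Ifi214, 20.02% for Ifi204, 19.6% for Mndal, 18.6% for Ifi205, 15.6% for Ifi213, 12.4% for Ifi203 and 7.29% for Ifi207. It was 0.742% for Aim2 and 0% for Ifi202b. With windows of 100 bases the share was 56.9% for Ifi211, 16.9% for Ifi209, 15.0% for Ifi205 and 10.7% for Ifi204. It was then 6.38% for Mndal, 3.30% for Ifi213, 2.84% for Ifi203, 0.790% for Ifi207, and 0% for Aim2 and Ifi202b. Reads with several positions were set aside in the deposited table. Levels of the members with shared windows, and of Ifi211 most of all, may thus miss reads, to an extent that depends on the read length. The share of entries set aside in this way moved with class, at up to 37.7% in the neither class, 37.8% to 43.4% in the Cp class and 41.7% to 45.8% in the H2-Ea-ps class, leaving out the shallow library at 60.5%. Mitochondrial genes took 2.80% to 3.33% of reads in the neither class, 3.27% to 4.35% in the Cp class and 3.89% to 15.7% in the H2-Ea-ps class. The part of either in the class levels below was not tested. Exons of Mndal and Ifi203 also overlap on the same strand, which makes both counts uncertain.

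The region just before the gene start is where interferon-activated factors are known to bind such genes, and the windows below show how alike the members are there. A search of 250 bases before each RefSeq start (GRCm38.p6, both strands) for the core of the interferon-stimulated response element, a pair of GAAA letters spaced by 2 bases of any kind, found it in 6 of the 9 members with an entry, Ifi203, Ifi205, Ifi207, Ifi211, Ifi213 and Mndal, against 2.98% of 32851 promoters. Aim2, Ifi209 and Ifi202b held no match, and Ifi204 had no entry. The letters TTCNNNGAA of the gamma-activated site were found in Ifi202b alone among the members, against 7.02% of all promoters. No promoter of the family held both motifs, so their matches did not overlap. The printed windows are 5′ to 3′ on the gene's strand, all genes here lie on the minus strand, and capitals mark the motif.
Ifi213, chr1:173599311-173599370: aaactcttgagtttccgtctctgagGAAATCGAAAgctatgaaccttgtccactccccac
Ifi203, chr1:173942493-173942552: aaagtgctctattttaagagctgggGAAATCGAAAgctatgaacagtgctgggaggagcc
Ifi207, chr1:173741816-173741875: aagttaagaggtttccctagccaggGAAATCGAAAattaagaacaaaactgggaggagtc
Ifi211, chr1:173913049-173913108: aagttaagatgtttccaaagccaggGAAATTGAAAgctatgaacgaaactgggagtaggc
Ifi205, chr1:174031855-174031914: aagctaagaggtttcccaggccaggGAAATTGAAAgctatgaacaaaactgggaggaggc
Ifi202b, chr1:173982959-173983017: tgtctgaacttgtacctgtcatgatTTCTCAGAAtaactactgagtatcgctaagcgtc

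Of the 60 bases shown, Ifi211 and Ifi205 shared 54, Ifi207 and Ifi205 52, and Ifi207 and Ifi211 50. The window of Ifi203 was identical over all 60 bases to that of Mndal, and the window of Ifi213 to that of Ifi208, a further family gene. A match is a description of these letters and says nothing of whether a factor was bound.

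Ifi202b stood apart from the other members. In the H2-Ea-ps class its lowest, median and highest levels were 221, 266 and 289 CPM, which made it the least variable member there, with a highest level 1.31 times the lowest. In the Cp class the same values were 0, 0.037 and 2.58 CPM, and in the neither class 0, 0.030 and 0.509 CPM. The lowest library of the H2-Ea-ps class was thus 85.7 times the highest library elsewhere. Per kilobase of exon, Ifi202b was the highest member in the H2-Ea-ps class, with a median of 157 CPM per kb against 67.9 for Ifi203, 56.1 for Mndal and 48.7 for Ifi204.

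Outside the H2-Ea-ps class, Ifi202b had no read in 8 of 24 libraries, where a count of 0 allows up to 3 reads, which is between 0.0719 and 0.228 CPM over the libraries of the Cp class. It had 1 read in 10 of the other libraries, and 2, 3, 4, 6 and 15 reads in 5 more. The library labelled PancO2 IgG 48 alone had 92 reads, or 2.58 CPM, beside 3 reads of H2-Ea-ps. That same library was also highest, among the 24, for the 3 genes whose departures from class means were most like those of Ifi202b. Col17a1, a collagen of skin basement membrane, stood there at 30.6 CPM against at most 4.18 CPM in the other 23, Csta1, a keratinocyte protease inhibitor, at 10.9 against at most 2.34, and Krt6b, a keratin of stressed epidermis, at 93.7 against at most 24.4. The likeness was r = 0.83, 0.78 and 0.77 over 36 libraries and 0.59 for each of the 3 without that library, and the part of skin in the Ifi202b reads was not tested.

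**Figure D1:**
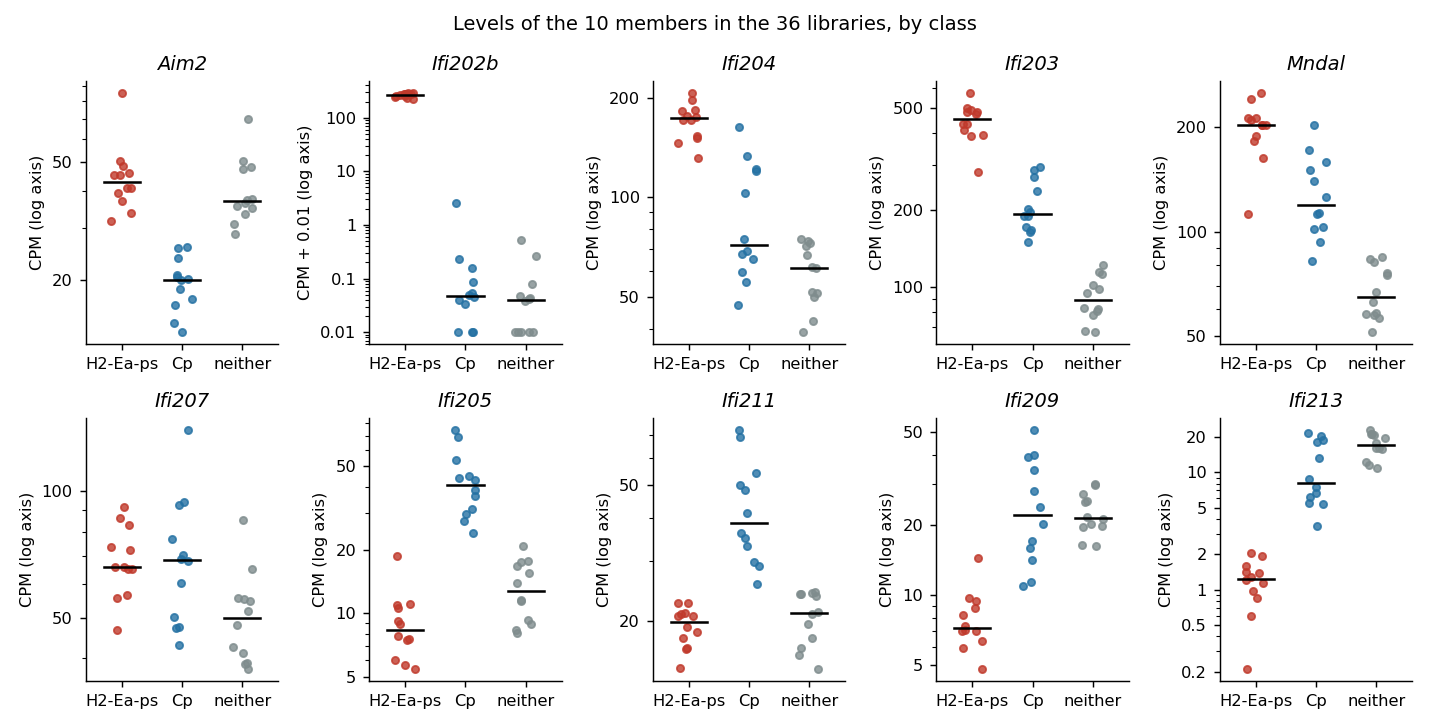
Level of each of the 10 members in CPM (vertical log axes, 1 panel per gene, 0.01 CPM added for Ifi202b so that zeros can be drawn) in the H2-Ea-ps, Cp and neither classes. Points are the 12 libraries of each class and bars the class medians. Ifi202b lies at 221 to 289 CPM in the H2-Ea-ps class and at or below 2.58 CPM elsewhere, while Ifi213 lies at or below 2.05 CPM in that class and at or above 3.49 CPM elsewhere.

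Ifi213 showed the opposite arrangement at a much lower level. It ranged from 0.211 to 2.05 CPM in the H2-Ea-ps class (median 1.24), from 3.49 to 21.4 in the Cp class (median 8.13) and from 10.9 to 23.0 in the neither class (median 16.9). The lowest library outside the H2-Ea-ps class was 1.70 times the highest inside it. The family gene Ifi206, which is no member, was arranged in the same way, at 0.271 to 1.65 CPM in the H2-Ea-ps class against at least 3.95 elsewhere. Among all 15217 genes at 1 CPM in 4 libraries, 5.07% were higher in the H2-Ea-ps class than in every other library and 8.72% were lower, so the 1 of 10 members in each direction, Ifi202b and Ifi213, is read as a description only.

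Ifi203, Mndal and Ifi204 formed a second set, highest in the H2-Ea-ps class and lowest in the neither class. Ifi203 had medians of 455, 194 and 89.1 CPM in the H2-Ea-ps, Cp and neither classes, with ranges of 283 to 575, 150 to 296 and 66.8 to 122. The H2-Ea-ps and Cp ranges met only through the H2-Ea-ps library labelled CT26 anti-CTLA4 34, and both lay wholly above the neither class. The next lowest library of the H2-Ea-ps class stood at 390 CPM of Ifi203. The library labelled CT26 anti-CTLA4 34 was the lowest of its class for 9 of the 10 members. Mndal had medians of 204, 120 and 65.0 CPM, with ranges of 112 to 251, 82.4 to 203 and 51.4 to 84.7, and Ifi204 had medians of 173, 71.7 and 61.3 CPM, with ranges of 132 to 207, 47.3 to 163 and 39.1 to 74.9. For these last 2 genes the H2-Ea-ps class was clear of the neither class but not of the Cp class, and the Cp and neither classes overlapped. Ifi203 and Mndal, whose exons overlap, also moved together within classes (r = 0.95 of departures from class means over 36 libraries, as a description).

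Ifi205 and Ifi211 were highest in the Cp class. Ifi205, whose product has been linked to control of the ASC gene, stood at 24.1 to 74.6 CPM there (median 40.8), above both the H2-Ea-ps class (5.45 to 18.8, median 8.36) and the neither class (8.06 to 20.9, median 12.8). Ifi211 stood at 25.8 to 72.7 CPM in the Cp class (median 38.8) against 14.6 to 22.6 (median 19.97) and 14.5 to 24.4 (median 21.1). The H2-Ea-ps and neither classes overlapped for both genes. Ifi211 shares 44.7% of its windows of 50 bases with Ifi205, and the part of shared sequence in these levels was not tested.

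Ifi209 was low in the H2-Ea-ps class, at 4.82 to 14.4 CPM (median 7.21), against 16.3 to 29.998 in the neither class (median 21.4), with no overlap. The Cp class ran from 10.9 to 51.3 CPM (median 22.1) and overlapped both. Ifi207 was the member least tied to class, at 46.7 to 91.7, 43.0 to 140 and 37.8 to 85.4 CPM in the H2-Ea-ps, Cp and neither classes, and its ranges overlapped in every pair.

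Aim2, the DNA sensor, was low in the Cp class alone. It stood at 13.4 to 26.0 CPM there (median 20.1), below every library of the H2-Ea-ps class (31.6 to 85.4, median 43.0) and of the neither class (28.7 to 69.8, median 36.9). The last 2 classes overlapped. The highest Aim2 value of all belonged to the shallow library (PancO2 anti-PD-1 71 by its label), and the next highest to PancO2 IgG 49.

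Counted over the members, the H2-Ea-ps class was wholly above the Cp class for 2 of 10 (Ifi202b and Aim2) and wholly below for 3 (Ifi205, Ifi211 and Ifi213), where 12% and 18.9% of all genes tested were so. Against the neither class it was wholly above for 4 (Ifi202b, Ifi203, Ifi204 and Mndal) and below for 2 (Ifi209 and Ifi213), beside 9.19% and 17% of all genes. The Cp class was wholly above the neither class for 3 (Ifi203, Ifi205 and Ifi211) and below for 1 (Aim2), beside 14.6% and 15.5%. The median log2 ratio of class medians over the members was 0.35, 0.31 and 0.34 in the 3 pairs, against -0.07, -0.09 and -0.03 over all genes. The members and the classes were both chosen with results of these data known, and nothing particular to the list is read from these counts. Lowering the thresholds to 500 CPM of Cp and 1 CPM of H2-Ea-ps placed 1 library, PancO2 IgG 49 by its label, in the Cp class. This left 0 members wholly above and 0 below between the Cp and neither classes, and 1 in place of 2 above between the H2-Ea-ps and Cp classes. Ifi205 stood at 15.5 CPM in that library and reached 18.8 CPM in the H2-Ea-ps library labelled PancO2 anti-PD-1 71. It was then no longer wholly below the Cp class in the H2-Ea-ps class.

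The makeup of the family's reads differed in step. Ifi202b gave a median of 21.5% of the members' summed CPM in the H2-Ea-ps class and under 0.01% in the other classes. Aim2 gave 9.67% in the neither class, 3.40% in the H2-Ea-ps class and 3.11% in the Cp class. The summed level itself was 865 to 1478 CPM in the H2-Ea-ps class, 408 to 1036 in the Cp class and 291 to 464 in the neither class.

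Along chromosome 1 the family fills 680932 bases (GRCm38, 173350879 to 174031810) in the order Aim2, Ifi206, Ifi214, Ifi213, Ifi209, Ifi208, Ifi207, Ifi204, Ifi203-ps, Mndal, Ifi211, Ifi203, Ifi202b and Ifi205. Of the 4 family genes that are no members, Ifi208 was lower in the H2-Ea-ps class (1.57 to 4.21 CPM) than in the neither class (7.87 to 15.6), like Ifi209 beside it. Ifi214 was higher in the H2-Ea-ps class (1.20 to 5.79 CPM) than in the neither class (0.0912 to 1.11), and so was the pseudogene Ifi203-ps (2.47 to 5.33 against 1.24 to 2.41). Genes lower and genes higher in the H2-Ea-ps class were thus next to each other, with Ifi206 and Ifi213 on either side of Ifi214. Within 1 Mb on either side, 13 further genes reached the level filter. In the pairs H2-Ea-ps against Cp, H2-Ea-ps against neither and Cp against neither, 9, 10 and 12 of them overlapped. Wholly higher were 2, 2 and 1, beside 12%, 9.19% and 14.6% of all genes. Wholly lower were 2, 1 and 0, beside 18.9%, 17% and 15.5%. Nothing particular to these neighbours is read from the counts.

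**Figure D2:**
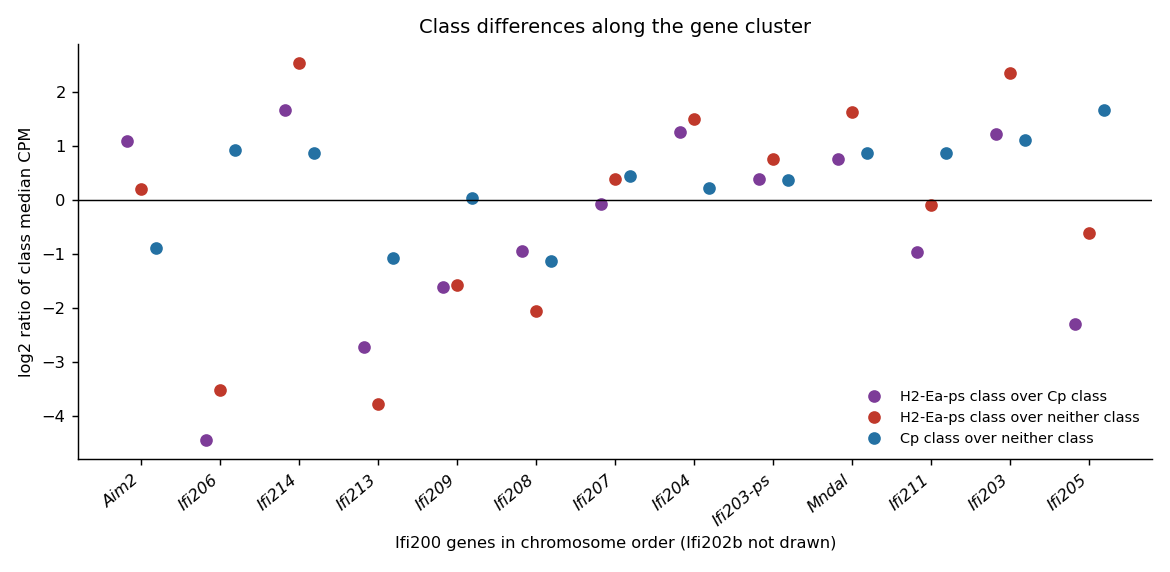
Log2 ratio of class median CPM (vertical axis) for 12 Ifi200 genes and Aim2 in their order on chromosome 1 (horizontal axis, not to scale). Purple is the H2-Ea-ps class over the Cp class, red the H2-Ea-ps class over the neither class and blue the Cp class over the neither class. Ifi202b is not drawn because its medians outside the H2-Ea-ps class were at or below 0.037 CPM. In both comparisons of the H2-Ea-ps class, Ifi206, Ifi213, Ifi209, Ifi208, Ifi211 and Ifi205 lie below 0. Aim2, Ifi214, Ifi204, Ifi203-ps, Mndal and Ifi203 lie above 0 in both. Ifi207 lies below 0 against the Cp class and above 0 against the neither class.

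To ask which members follow interferon response, each was set against 2 scores within each class, so that class differences do not enter. The type I score is the mean log2 CPM of 25 genes induced by type I interferon, among them Parp14 and Oasl2, and the IFN-γ score that of 18 genes led by Gbp2, Iigp1 and Tap1. No member is in either list. The scores are correlated with each other (r = 0.75, 0.89 and 0.84 in the H2-Ea-ps, Cp and neither classes). The type I score spanned 5.65 to 8.03 in the Cp class, a range of 2.38 on the log2 scale, and only 0.82 in the H2-Ea-ps class and 0.92 in the neither class. Its lowest library in the Cp class was that labelled PancO2 anti-CTLA4 58 and its highest that labelled MC38 anti-CTLA4 8. Pearson's r is given with a permutation p over 12 libraries, adjusted by Benjamini-Hochberg over all genes tested in that class. The family of relations is 60, from 10 members, 3 classes and 2 scores.

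In the Cp class, 8 of 10 members rose with the type I score and passed the test, where 5.38% of all genes did so in that direction. Ifi211 was closest (r = 0.99, rho = 0.99, permutation p = 1e-05, the smallest these permutations can give, adjusted p = 0.0020). Ifi204 followed (r = 0.98, rho = 0.97, permutation p = 1e-05, adjusted p = 0.0020), then Ifi203 (r = 0.96), Ifi213 (r = 0.96), Mndal (r = 0.95), Ifi205 (r = 0.94), Ifi209 (r = 0.93) and Ifi207 (r = 0.92), with adjusted permutation p of 0.0020 to 0.0029. Ifi202b (r = -0.32, adjusted permutation p = 0.52) and Aim2 (r = 0.16, adjusted permutation p = 0.74) did not pass. For Ifi202b this test is empty, since it had at most 4 reads in every library of the class but 1, which had 92. Whether Ifi202b follows the score in this class cannot be read from it.

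In levels, Ifi211 ran from 25.8 CPM in the library labelled PancO2 anti-CTLA4 58 to 72.7 in that labelled MC38 anti-CTLA4 8, and Ifi204 from 47.3 to 163 between the same libraries. These 2 libraries were the extremes of the Cp class for several members, lowest for 8 and highest for 7 of the 10. Without the 2 libraries farthest from the median score, the 8 members kept r of 0.87 (Ifi207) to 0.98 (Ifi211). The scores of the class fall into 2 stretches, 7 libraries at 5.65 to 6.55 and 5 at 7.05 to 8.03, and within the 7 alone r was 0.69 to 0.99 for the 8 members. The common leukocyte gene Ptprc, which encodes CD45, correlated with the same score at r = 0.57 in this class, and with the 8 members at r of 0.52 to 0.79. Its r with Aim2 was 0.78. After a linear fit on Ptprc was taken out, all 8 still passed for the type I score. Aim2 then had r = -0.55 with that score (adjusted permutation p = 0.15) in place of 0.16.

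**Figure D3:**
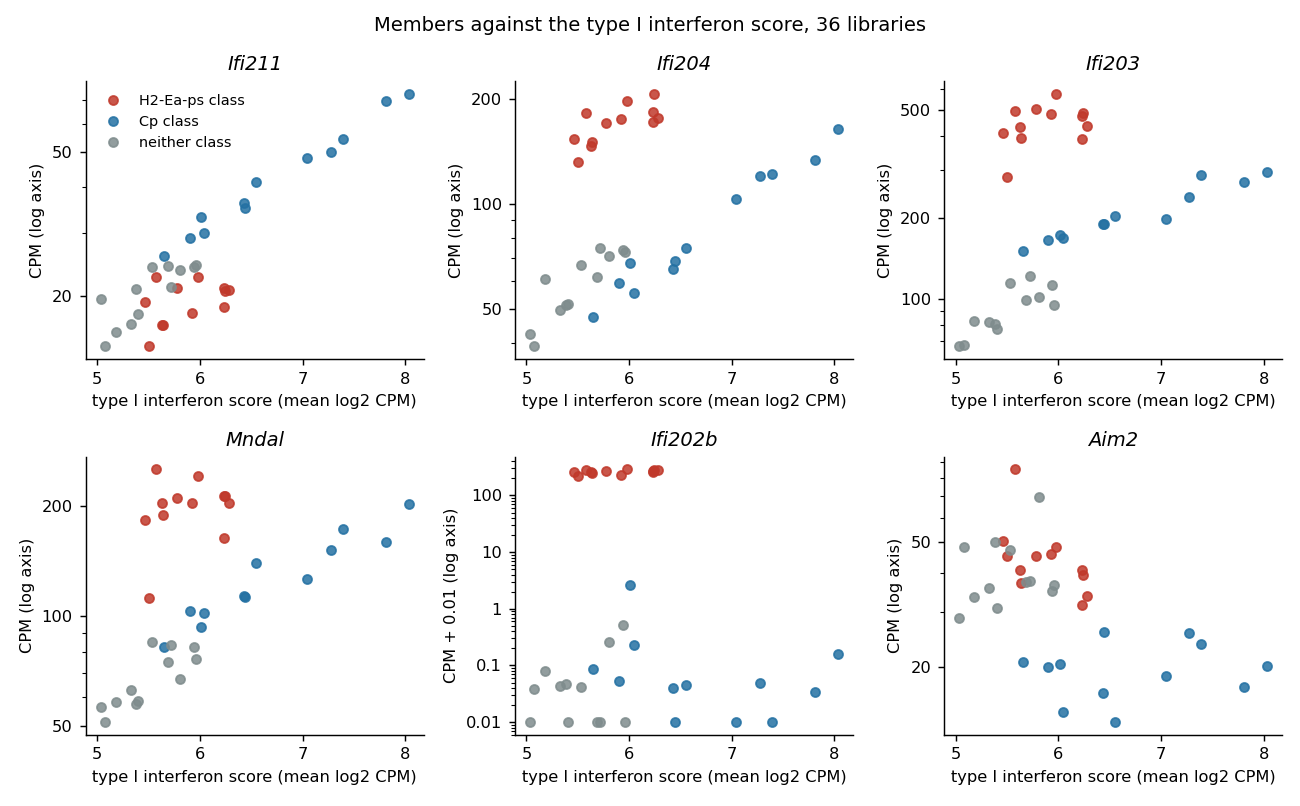
Levels of 6 members in CPM (vertical log axes, 0.01 CPM added for Ifi202b) against the type I interferon score (horizontal axis, mean log2 CPM of 25 genes), 1 point per library, 36 libraries. Red points are the H2-Ea-ps class, blue the Cp class and grey the neither class. Ifi211 and Ifi204 rise with the score in the Cp class (r = 0.99 and 0.98), while Ifi202b and Aim2 separate by class and show r of -0.32 and 0.16 in the Cp class. Ifi202b has very few reads in nearly all libraries of the Cp class, so its r there can show no relation.

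In the neither class no gene of the table passed the adjusted test for the type I score (0% called). Unadjusted, 6 members had p under 0.05, with Ifi204 at r = 0.88 (rho = 0.90, permutation p = 0.00017, adjusted p = 0.18) and Ifi205, Ifi203, Mndal and Ifi211 at r of 0.81 to 0.82. Ifi207 stood at r = -0.09. In the H2-Ea-ps class, where the score moved least, again 0% of genes passed. Unadjusted permutation p under 0.05 was found for 3 members, Ifi204 (r = 0.70), Ifi209 (r = 0.60) and, in the negative direction, Aim2 (r = -0.56, adjusted p = 0.98). Ifi202b had r = 0.43 there (adjusted permutation p = 0.98). Without the shallow library (PancO2 anti-PD-1 71 by its label), r was 0.89 in place of 0.39 for Ifi205, 0.67 in place of 0.42 for Ifi207 and 0.80 for Ifi204. Members with unadjusted permutation p under 0.05 were then 5 in place of 3, and 0 passed the adjusted test (adjusted permutation p = 0.25 for Ifi205). Whether r differed between classes was not tested.

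For the IFN-γ score the same 8 members passed in the Cp class, with r from 0.75 (Mndal) to 0.90 (Ifi209), where 7.87% of all genes passed in that direction. Ifi204 stood at r = 0.89 (rho = 0.83, permutation p = 0.00014, adjusted p = 0.0054). Removing the 2 farthest libraries lowered r to 0.58 to 0.88, and taking out the fit on Ptprc left 4 of the 8 past the threshold. In the neither class 1 member passed, Ifi203 (r = 0.86, adjusted permutation p = 0.039), where 1.76% of genes did, and it was lost with Ptprc taken out (adjusted permutation p = 0.30). In the H2-Ea-ps class 0 members passed and 0.132% of all genes did. Ifi204 had the highest r there, 0.78 (permutation p = 0.0030, adjusted p = 0.50).

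**Figure D4:**
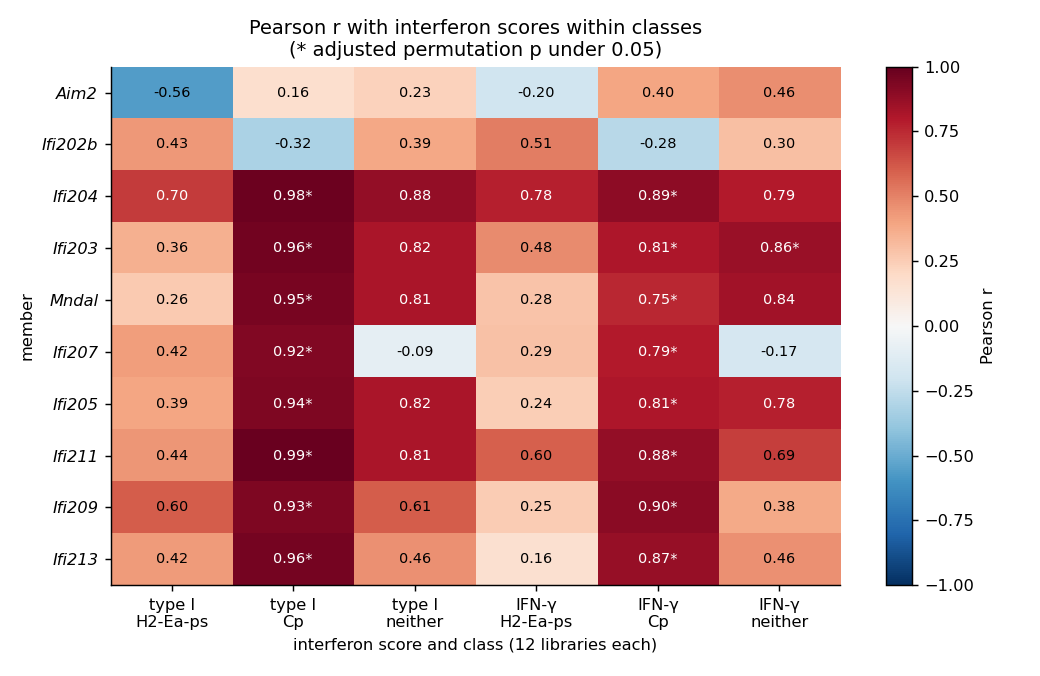
Pearson r of each member (rows) with the type I and IFN-γ scores in each class of 12 libraries (columns). Colour runs from -1 (blue) to 1 (red), and an asterisk marks an adjusted permutation p under 0.05. The Cp class carries 8 asterisks for each score, the neither class 1 and the H2-Ea-ps class 0, and Ifi202b and Aim2 carry none. Ifi202b has very few reads in the Cp and neither classes, so its r there can show no relation.

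The genes most like each member are given as a description, over 36 libraries that share library preparation and class. Over all libraries, Ifi211 was closest to Ifit1, Ifit3 and Ifit3b (r = 0.97, 0.96 and 0.95), antiviral interferon-stimulated genes that belong to the type I list. After class means were removed, Ifi204 was closest to Oasl2, Herc6 and Dhx58 (r = 0.94, 0.93 and 0.92), Ifi205 to Cd274, the gene of the checkpoint ligand PD-L1 (r = 0.84), and Ifi203 to Sp110 and Zbp1 (r = 0.83 and 0.82). Aim2 was closest to Chchd7 both over all libraries (r = 0.95) and after class means were removed (r = 0.84). Between members, Ifi204 and Ifi211 departed from class means together (r = 0.91), as did Ifi209 and Ifi213 (r = 0.88).

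The interferon lists and the partners of the family in DNA sensing were read beside these levels. The summed type I list was 1821 to 7814 CPM in the Cp class, 1413 to 2452 in the H2-Ea-ps class and 1016 to 1997 in the neither class, and 7 of its 25 genes lay wholly above the neither class in the Cp class, where 14.6% of all genes did. In the H2-Ea-ps class, 4 of the 25 lay wholly below the Cp class and 0 above, beside 18.9% and 12% of all genes. Against the neither class 0 lay wholly below and 1 above, and the median log2 ratio of class medians was 0.38 for the type I list and 0.64 for the IFN-γ list. Of 13 DNA-sensing genes, 12 reached the level filter. In the H2-Ea-ps class 1 of the 12 lay wholly above the Cp class and 2 below, beside 12% and 18.9% of all genes. Against the neither class 1 lay wholly above and 3 below, beside 9.19% and 17%. Nothing particular to that list is read from these counts. Tmem173, the gene of STING, was lower in the H2-Ea-ps class (21.7 to 54.3 CPM) than in the Cp class (68.8 to 137) and the neither class (68.4 to 111). Zbp1, a nucleic acid sensor, had medians of 89.2, 125 and 64.1 CPM with overlapping ranges, and Tbk1, the kinase downstream of STING, was higher in the H2-Ea-ps class (68.9 to 98.1 CPM) than in the neither class (56.7 to 67.2).

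Cell type markers moved with class too, and their part in the members' levels was not tested. The summed T cell list of 8 genes was 49.5 to 158 CPM in the Cp class, 18.8 to 48.5 in the H2-Ea-ps class and 6.14 to 96.9 in the neither class. The macrophage list of 11 genes, which includes the cells in which this family is best known, was 1271 to 2244 CPM in the Cp class, 931 to 1776 in the H2-Ea-ps class and 1839 to 2737 in the neither class. The summed fibroblast list of 6 genes was 5318 to 12565 CPM in the neither class, 3011 to 5877 in the Cp class and 1869 to 3781 in the H2-Ea-ps class, and the list of 6 epithelial and skin genes 62.8 to 430 CPM, 572 to 1144 and 9.57 to 44.7 in the same order. The dendritic cell list of 6 genes was 42.05 to 66.9 CPM, 34.7 to 165 and 12.2 to 76.9, with a median log2 ratio of -2.59 in the H2-Ea-ps class against the Cp class. Single genes of the fibroblast and skin lists did not all follow the sums. Of the fibroblast genes, 2 lay wholly above the neither class in the Cp class and 1 below, beside 14.6% and 15.5% of all genes. In the H2-Ea-ps class 1 lay wholly above the neither class and 4 below, beside 9.19% and 17%. For the epithelial and skin genes this was 1 above and 1 below. No marker of these lists is a member, and Cd3e and Csf1r were above 0 in the class medians of all 3 classes. The remaining lists went both ways in the H2-Ea-ps class against the Cp class. Their median log2 ratio was 0.65 for NK cells, 0.62 for endothelium, -0.52 for B cells, -1.37 for neutrophils and -0.58 for muscle. Against the neither class it was 0.14, -0.15, -1.30, -1.22 and 0.48 in the same order.

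The comparisons that the labels define were fitted with edgeR across all genes. The treatment labels come with the same columns as the strain labels that 16 libraries went against, so these fold changes hold only as far as the labels do, which was not tested. The 3 labelled models were compared under IgG, each antibody with IgG inside each model, and each antibody with IgG over all 36 libraries with class as a term, which gives 11 comparisons and 110 member tests. No member was called in any of them at an adjusted p under 0.05 (edgeR quasi-likelihood test, Benjamini-Hochberg over all genes), and 0% of all genes were. None had an unadjusted p under 0.05 in edgeR, 1 of 110 did with DESeq2 and 1 of 110 with limma-voom, and neither tool called a member. The share of all genes with unadjusted p under 0.05 ran from 0.153% to 5.56%. The labelled groups mix the classes, and the SE of a member's log2 fold change ran from 0.12 to 3.09 over the 110 tests.

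The smallest p of a member within a model belonged to Ifi207, anti-PD-1 against IgG in PancO2. The 4 libraries labelled anti-PD-1 stood at 65.4, 68.2, 94.2 and 91.7 CPM and the 4 labelled IgG at 47.3, 51.8, 41.2 and 82.9 CPM. The groups overlapped through the library labelled PancO2 IgG 54, of the H2-Ea-ps class. The log2 fold change was 0.56 ± 0.28 (SE, edgeR adjusted p = 0.81). In the other labelled comparisons the member with the smallest p had a log2 fold change of -0.50 ± 0.29 (Ifi207, CT26 IgG against MC38 IgG), -0.41 ± 0.29 (Ifi207, PancO2 IgG against MC38 IgG), 0.56 ± 0.38 (Aim2, PancO2 IgG against CT26 IgG), -0.50 ± 0.49 (Ifi204, MC38 anti-PD-1 against IgG), 0.34 ± 0.54 (Ifi211, MC38 anti-CTLA4 against IgG), 0.31 ± 0.26 (Ifi207, CT26 anti-PD-1 against IgG), 0.48 ± 0.41 (Aim2, CT26 anti-CTLA4 against IgG) and -0.50 ± 0.58 (Aim2, PancO2 anti-CTLA4 against IgG), where ± gives the SE and each edgeR adjusted p was 1.

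For Ifi211 in MC38, the libraries labelled MC38 anti-CTLA4 stood at 72.7, 24.3, 24.1 and 21.0 CPM and those labelled MC38 IgG at 21.2, 16.7, 20.8 and 54.5 CPM. The 1 high library in each group was its only Cp-class library, and without the library labelled MC38 anti-CTLA4 8 the log2 fold change was -0.31, and without that labelled MC38 IgG 7 it was 0.85. The part of class in this value was not tested. With class as a term over all libraries, the smallest p belonged to Ifi202b for both antibodies, at -0.80 ± 0.42 (SE, edgeR adjusted p = 0.94) for anti-PD-1 and -0.85 ± 0.43 (SE, edgeR adjusted p = 1) for anti-CTLA4. Outside the H2-Ea-ps class that gene has 0 to 15 reads in all but 1 library, which is labelled IgG and has 92, and the part of these few reads in the fold changes was not tested. Over the 10 members the fitted medians were -0.07 and -0.10 on the log2 scale.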

How the data were processed

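Whole-tumour RNA of 36 mice was sequenced, 4 per labelled group of model and treatment. The authors mapped reads to GRCm38/mm10 with TopHat and Bowtie2 after FastQC 0.11.5 and deposited raw counts per Ensembl gene made with HTSeq, together with 5 summary lines that name no gene. Those lines held 44.8% to 86.5% of all entries per library and were left out of library sizes. The labels name the Illumina TruSeq kit version 2. The study's methods name a stranded kit and a read length under a mutation analysis, and whether these apply here is not stated, so strand setting and read length were not used. Counts were scaled to CPM over genes, and libraries were grouped by label and by the 3 classes. Members, classes and lists were chosen with earlier results of these data known. All members are described, and in each labelled comparison the member with the smallest p is named. In each list, the 3 genes of highest level could be named.

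Labelled comparisons used edgeR 4.0.16 (TMM, quasi-likelihood), with DESeq2 1.42.0 and limma 3.58.1 as alternatives. Within-class relations used log2 CPM (prior count 2) and 100000 two-sided permutations, adjusted over all genes rather than over the relations alone as first planned. Fits were tested on simulated data. Apart from planted changes, the simulated libraries shared 1 mean per gene, had a fixed spread and held no classes. That test therefore does not show what the fits could find in labelled groups that mix the classes. Counting limits cover counting error only. Nothing says that libraries of 1 group come from separate experiments, so p-values measure the spread between these tumours. Promoter letters are from RefSeq, with 9 of 10 members matched.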

Additional observations from a re-analysis of the deposited data

Results flagged for a closer look

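Of 90 sets of 4 libraries (10 members in 9 labelled groups), 15 held 1 library set apart from the other 3 by a Dixon gap test, where chance gives about 1 in 20, or 4.5. In all 15 the library was the only one of its class in its labelled group. The groups mix the classes and the members move together, so the 90 sets are not independent and 15 cannot be weighed against 4.5. For a member that separates 1 class, such as Ifi202b, a lone library of that class is set apart by construction. The cause was not tested.

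For Ifi202b the libraries set apart were 6, all of the H2-Ea-ps class: MC38 anti-CTLA4 14 at 276 CPM, MC38 anti-PD-1 16 at 257, CT26 IgG 27 at 287, CT26 anti-PD-1 42 at 261, PancO2 IgG 54 at 289 and PancO2 anti-CTLA4 62 at 256 CPM. The library labelled PancO2 IgG 54 was also set apart for Ifi203 at 575 CPM, for Ifi204 at 197 and for Mndal at 241 CPM, and the library labelled CT26 anti-PD-1 42 for Ifi204 at 153 CPM.

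The others were of the Cp class. Ifi211 stood apart at 54.5 CPM in MC38 IgG 7, at 72.7 in MC38 anti-CTLA4 8 and at 36.2 in CT26 anti-PD-1 46, which was set apart at 36.2 CPM for Ifi205 too. Aim2 was low, at 18.8 CPM, in CT26 anti-CTLA4 36, where the other 3 libraries stood at 45.2 to 50.3 CPM.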

How the results depend on the processing

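No paired analysis was possible because each mouse number occurs once, so the groups share no replicate number. TMM and DESeq2 size factors, and leaving out the library labelled PancO2 anti-PD-1 71, moved no class median by more than 1 SD. The lower class thresholds (H2-Ea-ps 1 CPM, Cp 500 CPM) changed several counts of members. Wholly above the Cp class in the H2-Ea-ps class there was then 1 member. Between the Cp and neither classes 0 lay wholly above and 0 below. Ifi205 was also no longer wholly below the Cp class in the H2-Ea-ps class. The alternatives run for the 11 edgeR comparisons gave 0 members called, as did leaving out each library in turn in the 9 labelled ones. In the 2 with class as a term, only PancO2 anti-PD-1 71 was left out. The log2 fold change of Ifi211 in MC38 anti-CTLA4 ranged from -0.31 to 0.85 when 1 library was left out. Among the smallest-p members of the 9 labelled comparisons, it was the only one to change sign. With TMM library sizes, 8 members still passed for each score in the Cp class, but more of all genes passed with positive r. For the type I score these were 1479 of 15189 genes in place of 817. For the IFN-γ score they were 1971 of 15196 in place of 1196. The r of Aim2 with the type I score in the Cp class was 0.32 with TMM library sizes in place of 0.16. With the linear fit on Ptprc taken out, members called for the IFN-γ score fell from 9 to 4 in all, from 8 to 4 in the Cp class and from 1 to 0 in the neither class. The stretch of 7 Cp-class libraries was chosen after seeing the data. Depth limits Ifi202b outside the H2-Ea-ps class. Counts of Ifi213 inside that class were small as well. Its lowest library there, CT26 anti-CTLA4 34 by its label, held 7 reads and was the deepest of that class, at 33199177 reads in genes.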
